A study of Mus musculus with 2 samples.

Results

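Neurofilaments are the intermediate filaments of neurons. They are built on the light chain, with the medium and heavy chains and alpha-internexin as copolymers in the central nervous system and peripherin as a copolymer in many peripherally projecting neurons. They fill large axons and set their calibre, and inherited defects of the light chain cause axonal neuropathy in humans. The genes described here are the 5 that encode these proteins in the mouse, Nefl, Nefm, Nefh, Ina and Prph, picked by their Ensembl identifiers from the 12530 mouse genes of the tables. All 5 were listed with reads in both libraries, and all 5 had the 100 reads, summed over the libraries, that a gene needed to be tested.

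The libraries hold ribosome footprints, the mRNA fragments that ribosomes shield from RNase I, from mouse spinal cord. One library came from mice heterozygous for Gars C201R, a missense allele of the gene for glycyl-tRNA synthetase, which charges tRNAs with glycine, and the other from wild-type (WT) mice. Human GARS mutations cause a dominant peripheral neuropathy, and the series asked how ribosomes are spread over glycine codons in mutant tissue. Each library was made from pooled lysates of 3 animals, so there was 1 library per genotype and no value for the spread between animals. The labels used here give neither age nor sex of the animals. No p-value between genotypes could be computed, and every interval below covers counting error only.

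The heterozygous library held 3514016 listed reads and the WT library 7771455, with medians of 96 and 206 reads per gene. The tables hold 1 total per gene, so the position of ribosomes on glycine codons was not analysed here. There was no matched RNA library, so mRNA amount and ribosome load per mRNA cannot be told apart. In whole tissue, fewer neurons and less RNA per neuron cannot be told apart either. Identifiers of other genes were not paired with symbols, so markers of neurons, glia, Schwann cells and blood, which would check the tissue, were not analysed here. The same holds for the other cytoskeletal, transport and filament genes.

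All 5 genes had lower levels in the heterozygous library, by modest amounts. After scaling with TMM (a trimmed mean over genes), Nefm and Nefh stood at 75.6% and 74.8% of their WT level, Prph at 81.2%, Ina at 90.2% and Nefl at 92.9%. On this scale the median log2 ratio of all genes tested was -0.03, and 43.7% of them had a lower ratio than Nefl. By the counting interval alone, 28.2% of the genes tested were lower. None of the 5 genes was past the 1.5-fold limit used to call a gene. Each lay between the 5th and 95th percentiles of the ratios of the 500 other genes nearest in read number. For Nefl, Nefm, Nefh and Ina, most of those 500 genes had fewer reads. The balance of the subunits differed between the libraries, because Nefl was closer to its WT level than Nefm and Nefh were. How often pairs of other genes differ as much was not computed, so this difference is no test of genotype. By the deposited gene lengths, Nefl was above Nefm in the heterozygous library and below it in the WT library. This order depends on the lengths used, and coding lengths were not available.

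Nefl (ENSMUSG00000022055) encodes the light chain, the subunit on which the filament is assembled. It lies on chromosome 14 at chr14:68083863-68089095 (GRCm38.p6, RefSeq). Nefl had 24513 reads in the heterozygous library (95% Poisson interval 24207 to 24822), against 56592 in the WT library (56127 to 57060). In RPKM, reads scaled to gene length and library total as the authors deposited them, its level was 2060.1 (2034 to 2086) in the heterozygous library and 2149 (2132 to 2167) in the WT library. Both values place it near the top of its library, at rank 5 of 12530 genes by RPKM in the heterozygous library and rank 7 in the WT library. The log2 ratio of heterozygous over WT was -0.11 (95% counting interval -0.13 to -0.08). Other scalings of the libraries brought it closer to 0, outside that interval, at -0.053 with total gene reads, -0.066 with upper-quartile scaling and -0.061 from the deposited RPKM. Of the genes tested, 43.7% had a lower ratio, so Nefl stood near their middle.

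Nefm (ENSMUSG00000022054) encodes the medium chain, whose long tail carries phosphorylation sites and projects from the filament. It neighbours Nefl, at chr14:68119545-68125004, with 30449 bases between the genes and 1 annotated pseudogene in that gap. Nefm had 22112 reads (21822 to 22405) in the heterozygous library and 62688 (62198 to 63181) in the WT library. Its level was 1884 RPKM (1859 to 1909) in the heterozygous library, at rank 9, and 2414 RPKM (2395 to 2433) in the WT library, at rank 4. By deposited RPKM, it was the highest of the 5 genes in the WT library and second to Nefl in the heterozygous library. The log2 ratio was -0.40 (-0.42 to -0.38), and 20.03% of the genes tested had a lower one.

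Nefh (ENSMUSG00000020396) encodes the heavy chain, whose heavily phosphorylated tail is found mainly in large mature axons. It lies at chr11:4938754-4948064. Nefh had 12619 reads (12400 to 12841) in the heterozygous library and 36200 (35828 to 36575) in the WT library. Its level was 897 RPKM (882 to 913), at rank 34, in the heterozygous library and 1163 RPKM (1152 to 1176), at rank 22, in the WT library. The log2 ratio of -0.42 (-0.45 to -0.39) was close to that of Nefm, and 19.2% of the genes tested lay below it.

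Ina (ENSMUSG00000034336) encodes alpha-internexin, the subunit typical of central neurons, and lies at chr19:47014681-47025327. Ina had 3789 reads (3669 to 3912) in the heterozygous library and 9006 (8821 to 9194) in the WT library. Its level was 332 RPKM (322 to 343) in the heterozygous library and 357 RPKM (349 to 364) in the WT library. Its log2 ratio of -0.15 (-0.20 to -0.09) had 39.7% of the genes tested below it, which sets it beside Nefl and apart from Nefm and Nefh. With total gene reads as the scaling, the log2 ratio of Ina was -0.095 (-0.15 to -0.04).

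Prph (ENSMUSG00000023484) encodes peripherin, which motor neurons and sensory neurons make and which can join the neurofilament subunits in one filament. It lies at chr15:99053579-99058978. Prph had 611 reads (564 to 661) in the heterozygous library and 1613 (1535 to 1694) in the WT library, the fewest of the 5 genes. Its level was 93.2 RPKM (85.9 to 101) in the heterozygous library, at rank 673, and 111 RPKM (106 to 117) in the WT library, at rank 535. Its log2 ratio of -0.30 (-0.44 to -0.16) had the widest interval of the 5, and that interval took in the ratios of Nefm and Nefh. Peripherin was the lowest of the group in both libraries, yet it was still 10.8-fold above the median gene by RPKM in the heterozygous library and 13.2-fold in the WT library.

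**Figure D1:**
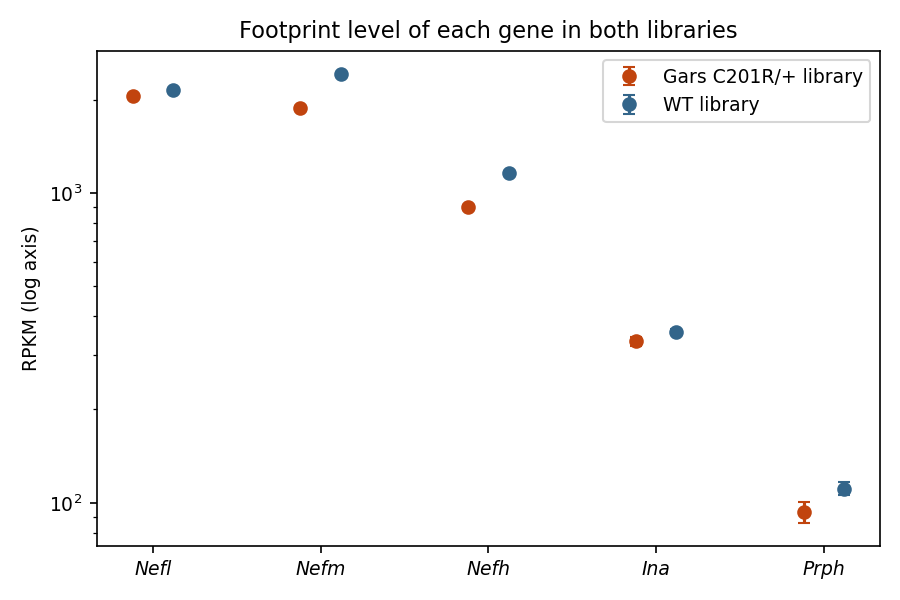
Deposited RPKM (log axis) of each of the 5 genes in the Gars C201R/+ library (left point) and the WT library (right point), with 95% Poisson intervals that cover counting error only and are often smaller than the point. Each gene is lower in the heterozygous library. By deposited RPKM, Nefl and Nefm exchange places at the top, with 2060.1 and 1884 RPKM in the heterozygous library against 2149 and 2414 RPKM in the WT library. The order of genes within a library depends on the gene lengths used.

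By RPKM, the order in the heterozygous library was Nefl, Nefm, Nefh, Ina and Prph, and in the WT library Nefm, Nefl, Nefh, Ina and Prph. Neighbours in each order were separated by more than their counting intervals. The counting intervals of each gene also did not overlap between the libraries on the RPKM scale. The share of all genes with such a gap was not computed. By the ratio interval after TMM scaling, 51.9% of the genes tested differed in either direction. Such intervals shrink with read number, so the gap is no test of genotype. Together the 5 genes took 1.82% of the gene reads of the heterozygous library (95% Wilson interval 1.81% to 1.84%) and 2.14% (2.13% to 2.15%) of those of the WT library. Their summed reads had a log2 ratio of -0.28 (-0.30 to -0.27), which is set mainly by the 3 most abundant genes.

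The call rule asked for at least 100 reads over both libraries, a ratio of 1.5-fold or more in either direction and a 95% counting interval that left out equal levels. By this rule 0 of the 5 genes were called, where 19.3% of the 9726 genes tested were called, 8.14% as higher and 11.2% as lower. Dropping the fold limit and keeping the interval, all 5 were lower, where 28.2% of the genes tested were lower, 23.7% were higher and 51.9% differed in either direction. Counting intervals shrink with read number, and the 5 genes had 2224 to 84800 reads over both libraries, so this count is no test of genotype. The median log2 ratio was -0.30 over the 5 genes and -0.03 over all genes tested.

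**Figure D2:**
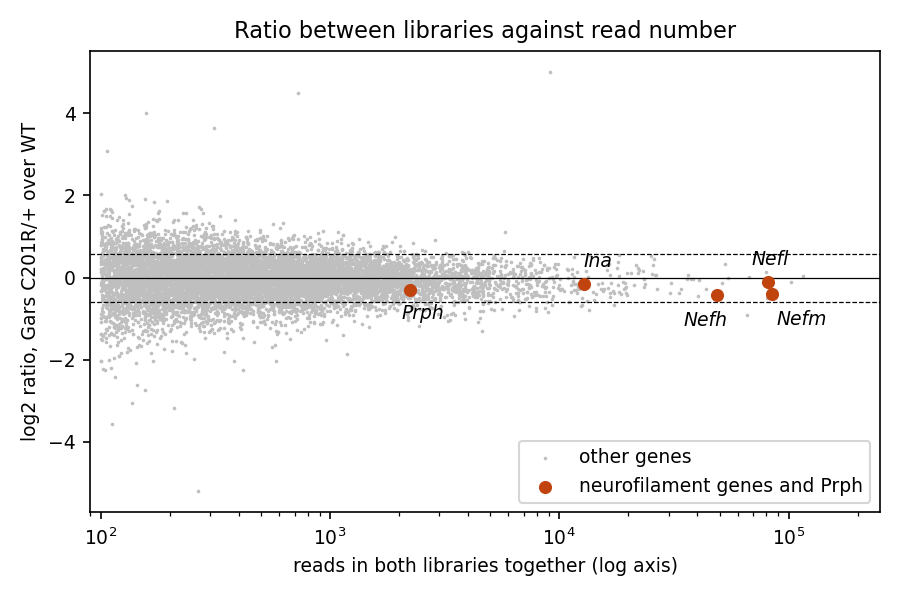
Log2 ratio of the Gars C201R/+ over the WT library against the reads of both libraries together (log axis) for the 9726 genes tested, with the 5 genes as large points and dashed lines at 1.5-fold. The 5 genes lie below 0 and between the dashed lines, from -0.42 for Nefh to -0.11 for Nefl.

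Because counting error falls with read number, each gene was also set beside the 500 other genes nearest to it in read number. For Nefl, Nefm and Nefh these were the same 500 genes, with 3671 to 115809 reads in both libraries together. Nefl, Nefm and Nefh themselves had 81105, 84800 and 48819 reads. They ranked 13 or higher by reads in each library, so most of these 500 genes were less well read. The median log2 ratio of the 500 genes was -0.08 with a robust SD of 0.34, and their 5th and 95th percentiles were -0.64 and 0.41. Nefl had 241 of the 500 below it, or 48.2%, and so stood at their middle. Nefm had 17.0% and Nefh 16.4% below them, below the lower quartile of -0.32 and above the 5th percentile. Relative to the median of these genes the log2 ratio was -0.32 for Nefm and -0.34 for Nefh, about the size of the robust SD. Ina had 43.6% of its own 500 genes below it. Those genes had 3640 to 43721 reads, against 12795 for Ina. As Ina ranked 83 and 82 by reads in the heterozygous and the WT library, most of them were also less well read. Prph, beside genes with 1787 to 2770 reads and a robust SD of 0.33, had 21.6% below it. By the call rule, 31 of the 500 genes beside Nefl, Nefm and Nefh were lower and 6 were higher.

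**Figure D3:**
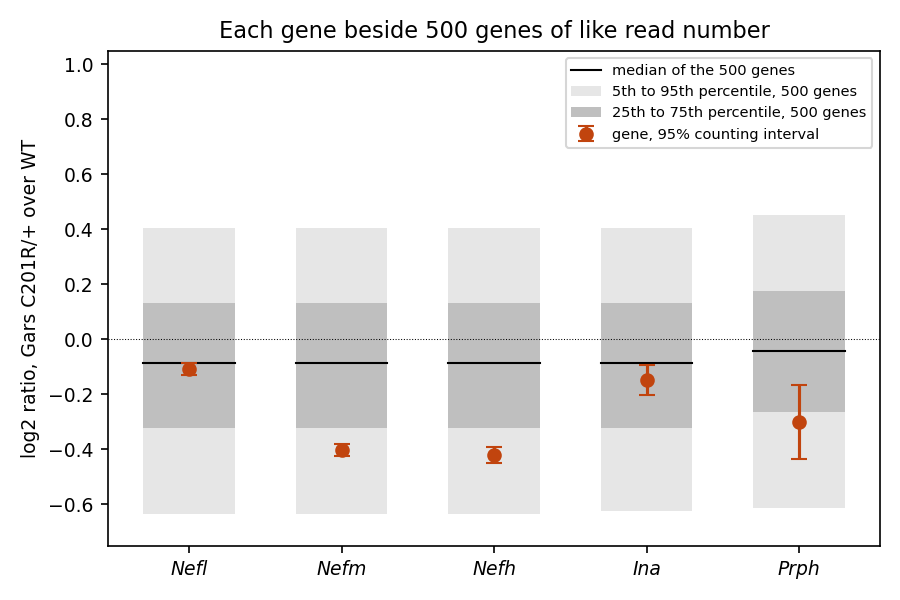
Log2 ratio of each gene (point, with its 95% counting interval) over the spread of the 500 genes nearest in read number, shown as the 5th to 95th percentile (light bar), the 25th to 75th percentile (dark bar) and the median (line). Nefl and Ina lie in the dark bars, and Nefm, Nefh and Prph lie below them but within the light bars. Most of the 500 genes beside Nefl, Nefm, Nefh and Ina have fewer reads than these genes.

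Ratios between subunits within a library do not depend on how the libraries are scaled, but they do depend on the gene lengths used. Per length, Nefl stood to Nefm as 1.09 (1.07 to 1.11) in the heterozygous library, against 0.890 (0.880 to 0.901) in the WT library. Nefl to Nefh was 2.30 (2.25 to 2.35) in the heterozygous library and 1.85 (1.82 to 1.87) in the WT library. The light chain was thus higher relative to both tailed chains in the heterozygous library, by 1.23-fold (1.202 to 1.255) against Nefm and by 1.24-fold (1.21 to 1.27) against Nefh.

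The ratio of the medium to the heavy chain was nearly equal in both libraries. Nefm to Nefh was 2.10 (2.05 to 2.15) in the heterozygous library and 2.07 (2.05 to 2.10) in the WT library, a 1.01-fold difference (0.986 to 1.04). Nefl to Ina was 6.20 (5.99 to 6.42) in the heterozygous library and 6.02 (5.89 to 6.16) in the WT library, a 1.03-fold difference (0.988 to 1.07). Nefm and Nefh were lower relative to Ina, with ratios in the heterozygous library at 0.838 (0.805 to 0.873) and 0.829 (0.794 to 0.865) times those in the WT library.

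Against Prph, the ratio in the heterozygous library over that in the WT library was 1.14 (1.04 to 1.26) for Nefl and 1.11 (1.004 to 1.23) for Ina. It was 0.931 (0.847 to 1.02) for Nefm and 0.920 (0.837 to 1.01) for Nefh, whose intervals include equal ratios. Of the 10 pairs, 6 had a counting interval that excluded an equal ratio in both libraries, Ina to Prph only narrowly. The same count was not made for pairs of other genes, and the pairs share genes, so this count is no test of genotype. The log2 changes of the pairs were at most 0.31 in size. The robust SD of 0.34 given above for the genes beside Nefl, Nefm and Nefh is a spread of single genes. The spread of such changes among pairs of other genes was not computed. With 1 library per genotype, whether other libraries would show the same balance was not tested.

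As shares of the summed RPKM of the 4 neurofilament subunits, Nefl made up 39.8% in the heterozygous library and 35.3% in the WT library. Nefm made up 36.4% in the heterozygous library and 39.7% in the WT library, and Nefh 17.3% and 19.1% in the same order. Ina made up 6.42% in the heterozygous library and 5.87% in the WT library. These shares rest on gene lengths of 3380 nt for Nefl, 3334 nt for Nefm, 3994 nt for Nefh and 3240 nt for Ina, recovered from the deposited values. Lengths that take in untranslated sequence lower the RPKM of a gene whose footprints lie in its coding part, so the shares are not subunit amounts. For the same reason, the order of Nefl and Nefm within a library could differ with coding lengths, which were not available.

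**Figure D4:**
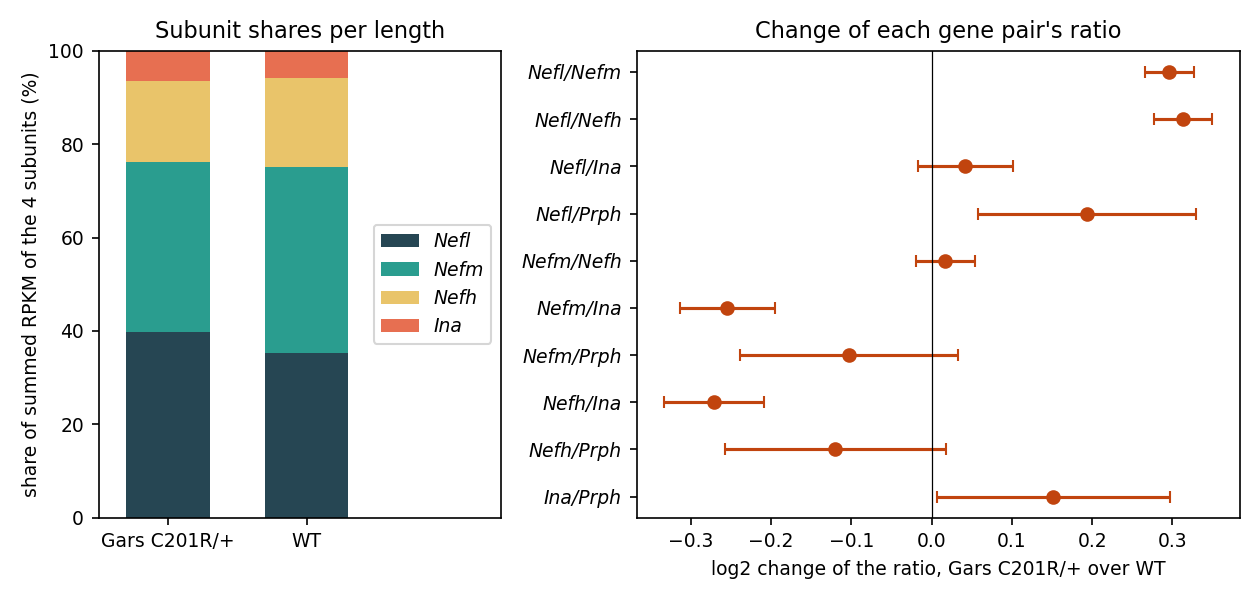
Left, share of the summed RPKM of the 4 neurofilament subunits held by each, in the Gars C201R/+ and the WT library. Right, log2 change of the ratio of each of the 10 gene pairs, Gars C201R/+ over WT, with 95% counting intervals; the ratios of Nefl to Nefm and Nefl to Nefh lie furthest from 0, and Nefm to Nefh lies at 0.02.

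Likeness to other genes was measured as the distance between genes in log2 RPKM over both libraries, which compares level and ratio only, over 2 values per gene. Nefl and Nefm had the same nearest gene outside the group, ENSMUSG00000017390, with 2018 RPKM in the heterozygous and 2390 RPKM in the WT library, at distances of 0.16 from Nefl and 0.10 from Nefm. The nearest to Nefh was ENSMUSG00000023944, with 899 RPKM in the heterozygous and 1135 RPKM in the WT library, at a distance of 0.04. The symbols of both are not paired with their identifiers here. The nearest to Ina and Prph lay at 0.13 and 0.03. Nearness in level did not always mean a like ratio: the log2 ratio of ENSMUSG00000017390 was -0.29, against -0.11 for Nefl and -0.40 for Nefm, while that of ENSMUSG00000023944 was -0.38, against -0.42 for Nefh.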

How the data were processed

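Ribosome footprints of spinal cord from 1 heterozygous and 1 wild-type pool were compared. The authors deposited read counts per gene and RPKM values, per the file headers. Per the submitters' processing notes, Bowtie 1.2.2 and HTSeq 0.9.1 were used with build GRCm38. Settings, annotation, strand handling and the counted part of a gene are not given in the sources, so overlapping, antisense or near-identical genes could share reads. Dividing counts by RPKM gave the same whole-number gene lengths in both libraries. Of these, 33.7% were multiples of 3, as were the lengths of 2 of the 5 genes. A coding sequence is a multiple of 3, so most of these lengths are not that of a single coding sequence.

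TMM scaling of the library sizes used edgeR 4.0.16 (R 4.3.3), leaving out 18 ERCC spike-ins. Log2 ratios used a prior count of 0.5, scaled to the size of each library. Intervals at 95% were exact Poisson for reads, Clopper-Pearson for ratios, Wilson for shares and normal on the log scale for changes of pair ratios. They cover counting error only, as reads may not be independent molecules. The calculation was tested on simulated data. Alternatives were other scalings, among them DESeq2 1.42.0 size factors, other limits of the call rule, other prior counts and a thinned WT library. Other steps used scipy 1.17.1, numpy 2.4.6, pandas 2.3.3 and, for figures, matplotlib 3.10.9 under Python 3.11.15.

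The 5 genes, the lists and the rules were chosen with earlier results of these data known. Named genes were the 5 and, for each, its nearest genes in level. Their symbols came with the choice of the genes. Positions are from RefSeq (GRCm38.p6), matched by symbol for 5 of 5. The reference table of 49997 genes held 0 Ensembl identifiers, so lists of related and cell type genes were not analysed here, and neither was glycine content.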

Additional observations from a re-analysis of the deposited data

How the results depend on the processing

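Under the 8 alternatives based on gene reads, the 5 genes stayed below equal levels in all 40 values, with their counting intervals excluding equal levels. These values reuse the same 2 libraries and are not separate tests. The prior count does not enter the intervals, so the intervals under other prior counts were bound to equal the main ones. Other prior counts, DESeq2 size factors and TMM without genes above 1% of a library hardly changed the ratios, with Nefl between -0.108 and -0.106. The median log2 ratio of the 5 genes lay between -0.31 and -0.25 under the 8 alternatives. Total gene reads, upper-quartile scaling and the ratio of deposited RPKM gave Nefl -0.053, -0.066 and -0.061, Nefm -0.35, -0.36 and -0.36, and Nefh -0.37, -0.38 and -0.37. These scalings shift every gene by 1 common amount. Scaling to the spike-ins, which made up 0.650% of the heterozygous and 0.00669% of the WT reads, moved the median of all genes to -6.59 and gave Nefl -6.67, Nefm -6.96, Nefh -6.98, Ina -6.71, Prph -6.86 and a median of the 5 of -6.86. It called all 5 genes and all 9726 genes tested as lower, which says nothing about single genes. Without a fold limit 5 of the 5 genes and 5050 of all genes were called. A 2-fold limit called 433 genes, and a minimum of 500 reads called 506 of 4480 tested, with 0 of the 5 genes in both cases, against 1879 of all genes by the rule of the report. Read ratios not divided by length were 0.903 for Nefl to Nefm in the WT library. In the heterozygous and the WT library they were 1.94 and 1.56 for Nefl to Nefh, 1.75 and 1.73 for Nefm to Nefh, and 6.47 and 6.28 for Nefl to Ina. Division by length cancels in the change of a pair between the libraries. By reads instead of RPKM, Nefl ranked 4 and Nefm 5 in the heterozygous library, against 5 and 3 in the WT library. Thinning the WT library gave 1.81 for Nefl to Nefh there, per length, and left the changes of all 10 pairs within their counting intervals. No paired analysis was possible because each genotype has 1 library, and no replicate could be left out. The alternatives planned for gene lists were not run, as no list could be matched.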
